A study of Narcissus tazetta subsp. chinensis with 8 samples.

Results

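Plant lipid genes were followed through flowering in the Chinese narcissus Narcissus tazetta var. chinensis, cultivar Jinzhanyintai, as 51 genes described as lipid transfer proteins, lipases, phospholipases, desaturases, glycerolipid acyltransferases, sterol genes or oleosins. They are 51 of the 1929 genes for which the authors deposited a description, and of 81096 assembled genes with a level in at least 1 tissue. A gene was taken when its Swiss-Prot or Nr description held one of the words lipid transfer, pEARLI1, GDSL, lipase, phospholipase, desaturase, glycerol-3-phosphate acyltransferase, sterol, sphingo or oleosin, and 1 gene that also named a methyltransferase was dropped. Descriptions exist for genes the authors called between the days, so the choice rests on measured values: 43 members come from the corolla calls and 25 from the petal calls, with 17 in both. RNA was sequenced from field-grown flowers in 4 groups of 2 repeats each: corolla on day 7 (full bloom), corolla on day 1 (early flowering), petal on day 7 and petal on day 1. All 8 libraries come from the same untreated cultivar. The labels state neither how corolla was parted from petal nor how many flowers or plants make up a repeat, so the p-values below measure the spread between these repeats alone, which may be technical.

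Petals and corollas cover their outer cells with a cuticle of cutin and wax, and build membranes from glycerolipids, sphingolipids and sterols. Lipid transfer proteins are small secreted proteins that hold lipids in a hydrophobic pocket and carry them through the cell wall, while GDSL esterases and lipases are hydrolases, of which some act as acyltransferases that join cutin monomers in the wall. Desaturases and acyltransferases build membrane lipids, and phospholipases and other lipases take them apart, a process known from ageing petals and leaves.

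The 51 members were 18 GDSL esterases or lipases, 10 lipid transfer proteins, 7 sterol genes, 5 phospholipases, 5 other lipases, 4 desaturases, 1 glycerolipid acyltransferase and 1 oleosin. The names are the authors' best matches in other species and were not checked against sequence here. The protein family entry (Pfam) deposited with the descriptions named a GDSL-like lipase domain for 17 of the 18 GDSL members. A membrane term of the Gene Ontology, which the rule did not use, was attached to 26 of the 51 members (51.0%), against 468 of the 1929 described genes (24.3%). A few members met the rule by a word alone: 3 genes called caffeoylshikimate esterase in Swiss-Prot, an enzyme of lignin synthesis, are monoglyceride lipases in Nr, and a pair of lecithin-cholesterol acyltransferase-like genes came in through the word cholesterol. Levels are FPKM, fragment counts scaled by transcript length and by the size of the library, so they can be compared between genes.

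The libraries gave 23336 to 26172 genes at 1 FPKM or more in corolla and 23508 to 29601 in petal, and the shallowest library of each tissue was day 7 repeat 2, at 0.738 and 0.655 of the depth of day 1 repeat 1 in corolla and petal. Between repeats, the median member differed by 0.190 to 0.252 on the log2(FPKM + 1) scale. The perianth identity gene MADS-box transcription factor 2 (c106110.graph_c1), a PISTILLATA-like B class gene, was at 165 and 173 FPKM in corolla on day 7, 479 and 446 FPKM in corolla on day 1, 41.6 and 54.0 FPKM in petal on day 7, and 268 and 241 FPKM in petal on day 1. It is 1 of 4 described B class and other MADS-box genes, which did not move as one. The day counts by limma cover only genes picked from the authors' calls in the other tissue. Of these, 1 of 4 was higher on day 7 and 2 lower in petal, and 1 of 2 was higher and 1 lower in corolla. Between tissues 1 of 4 was higher in corolla and 0 lower on each day. Described genes of photosynthesis, 32 in all, summed to 1279 to 1511 FPKM in corolla on day 7 and 5490 to 5719 FPKM in corolla on day 1, against 586 to 609 FPKM in petal on day 7 and 1561 to 1566 FPKM in petal on day 1. Described pollen and anther genes, 8 in all, summed to 144 to 241 FPKM in corolla on day 7, 130 to 186 FPKM in corolla on day 1, 51.4 to 57.0 FPKM in petal on day 7, and 91.7 to 113 FPKM in petal on day 1. The photosynthesis sum was lower on day 7 in both tissues and higher in corolla on both days, without overlap. The pollen and anther sum was lower on day 7 in petal without overlap, while its corolla days overlapped, and it was higher in corolla than in petal on both days. Of the pollen and anther genes picked in the other tissue and tested by limma, 3 of 3 were lower on day 7 in petal and 3 of 6 in corolla. Between tissues 4 of 8 were higher in corolla on day 7, and 5 were higher and 3 lower on day 1. Of all described genes picked the same way, 14.6% were higher on day 7 and 38.6% lower in petal, and 19.2% and 56.5% in corolla. Between tissues, 16.7% of all described genes were higher in corolla and 17.4% lower on day 7, and 27.3% and 22.8% on day 1. The part of these lists in the results was not tested. In whole tissue, fewer cells of a type and less RNA per cell cannot be told apart.

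Summed over the members, the lipid genes held 2765 and 2815 FPKM in corolla on day 7, against 11329 and 10156 FPKM in corolla on day 1. In petal they held 2763 and 3333 FPKM on day 7, against 12284 and 10509 FPKM on day 1. These sums were 0.331% to 0.370% of all FPKM in the day 7 libraries and 1.18% to 1.40% in the day 1 libraries. As the day contrast chose the members, the totals are a description. The authors' calls, which by the values hold an FDR under 0.01 and a fold change of 2 or more, ran mostly one way: of the 43 members called in corolla 9 were higher and 34 lower on day 7, and of the 25 called in petal 3 were higher and 22 lower. In the authors' deposited tables the calls covered 0.817% of all genes as higher and 1.83% as lower in corolla, and 0.56% as higher and 1.01% as lower in petal. The 17 members called in both tissues moved the same way in both, 2 higher and 15 lower, and so did nearly all of the 520 genes the authors called in both, 23.3% higher and 76.5% lower. Near the edge of the rule, the authors' deposited table gives GDSL At4g10955 (c107549.graph_c1) a log2 fold change of -1.03 at an FDR of 0.00257 in corolla, just inside, and phospholipase A(1) LCAT3 (c97836.graph_c0) -0.97 at 0.0241, just outside. In petal the authors' deposited table gives omega-3 desaturase (c103867.graph_c0) -1.20 at 0.00579, inside, and GDSL EXL3 (c96233.graph_c1) 1.22 at 0.0222, outside.

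**Figure D1:**
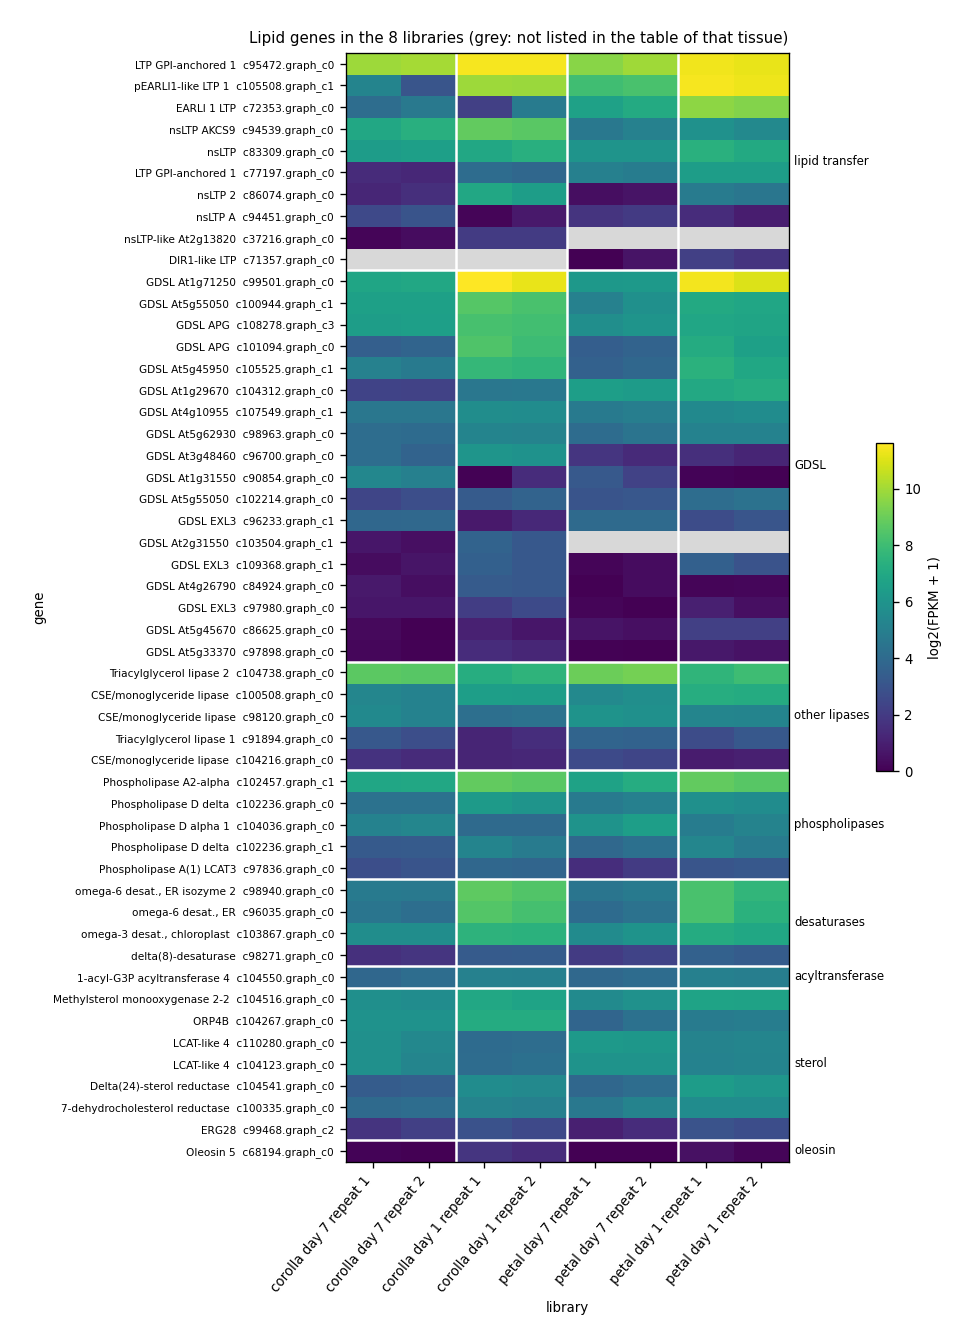
Level of each of the 51 members (rows, ordered by group and then by mean level) in each of the 8 libraries (columns), as log2(FPKM + 1); grey marks a gene not listed in that tissue's table. Most rows are darker in the day 7 libraries of both tissues, while triacylglycerol lipase 2, at 408 and 390.1 FPKM in corolla on day 7 against 149 and 189.8 FPKM on day 1, is brighter.

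The groups did not share this course equally. Lipid transfer proteins together held 1249 and 1353 FPKM in corolla on day 7, against 4478 and 4460 FPKM on day 1, and 1243 and 1561 FPKM in petal on day 7, against 6615 and 5961 FPKM on day 1. GDSL members held 463 FPKM in each corolla library of day 7, against 4587 and 3655 FPKM on day 1, and 344 and 386 FPKM in petal on day 7, against 3551 and 2741 FPKM on day 1. Desaturases held 101 and 95.9 FPKM in corolla on day 7, against 979.8 and 827 FPKM on day 1, and 88.0 and 112 FPKM in petal on day 7, against 772 and 503 FPKM on day 1. In each of these 3 groups the day 7 libraries lay far below the day 1 libraries of the same tissue, with no overlap. Phospholipases held 184 to 292 FPKM over the day 7 libraries of both tissues and 504 to 600.2 FPKM over the day 1 libraries. Sterol genes held 219.6 to 264 FPKM on day 7 and 329 to 388 FPKM on day 1. That sum includes the lecithin-cholesterol acyltransferase-like pair, of which c110280.graph_c0 made up 32.3% and 26.8% in petal on day 7. The summed other lipases went the opposite way. In corolla they held 502 and 467 FPKM on day 7, against 260.5 and 301 FPKM on day 1. In petal they held 634 and 702 FPKM on day 7, against 389 and 441 FPKM on day 1. Triacylglycerol lipase 2 alone made up 80.5% to 83.5% of this sum on day 7 and 50.1% to 63.0% on day 1. The rest of the sum was lower on day 7 than on day 1 in both tissues.

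**Figure D2:**
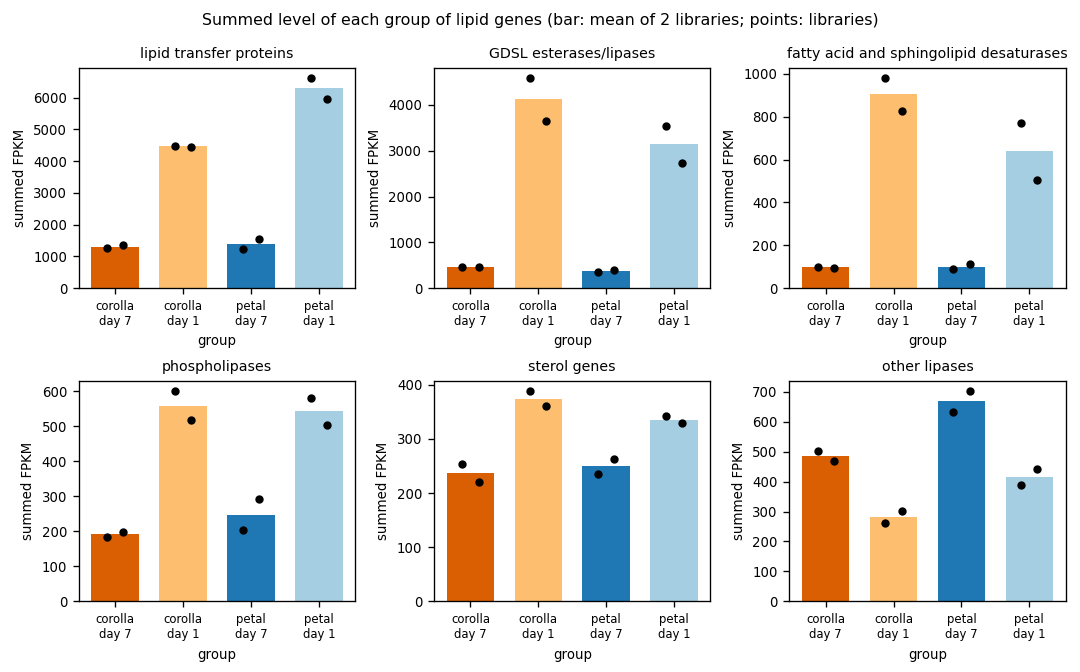
Summed FPKM (y axis, starting at 0 in each panel) of 6 groups of members in each group of libraries (x axis); bars are means of 2 libraries and points the libraries. Day 7 is below day 1 in 5 panels, and the other lipases are above it, at 467 to 702 FPKM on day 7 against 260.5 to 441 FPKM on day 1. Triacylglycerol lipase 2 was 80.5% to 83.5% of that day 7 sum, and the rest of the sum was lower on day 7.

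The question open to a test is whether genes picked for a change in one tissue changed in the other. Genes that reached 1 FPKM in 2 or more of a tissue's 4 libraries were fitted with limma on log2(FPKM + 1), a scale that understates changes of low genes, and called at a Benjamini-Hochberg adjusted p, or FDR, below 0.05 over all genes of the fit. In petal, 37 of the 43 members picked from the corolla calls could be tested: 7 were higher on day 7, 23 were lower and 7 passed in neither direction. Over all petal genes tested, 4.12% were called higher and 6.05% lower, and over all 1389 described genes picked from the corolla calls, 14.6% and 38.6%. The members' shares were 18.9% and 62.2%, and their median log2 fold change was -0.97, against -0.05 over all genes. Of the 6 not tested, 4 were under the minimum level and 2, GDSL At2g31550 (c103504.graph_c1) and a protein like At2g13820 (c37216.graph_c0), are not listed for petal. A further 3, lipid-transfer protein 2, GDSL At1g31550 and EXL3 c109368.graph_c1, passed the minimum through the day on which they were high alone, so that they had to differ, and without them 6 were higher and 21 lower of 34.

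In corolla, 23 of the 25 members picked from the petal calls could be tested by limma, and 2 were higher on day 7, 18 were lower and 3 passed in neither direction. Over all corolla genes tested, 6.52% were called higher and 15.0% lower, and over all 788 described genes picked from the petal calls, 19.2% and 56.5%. The members' shares were 8.70% and 78.3%, with a median log2 fold change of -1.82, against -0.06 over all genes. EXL3 c109368.graph_c1 passed the minimum through day 1 alone, and without it 2 were higher and 17 lower of 22. The 2 higher still include GDSL At1g31550, which met the minimum through day 7 alone, with only 1 day 1 library at that level.

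These counts lean on the day 1 libraries. With 1 library left out and the minimum applied again to the rest, the limma calls in petal were 0 higher and 7 lower without day 1 repeat 1, and 0 higher and 9 lower without day 1 repeat 2, with 7 to 8 higher at an unadjusted p below 0.05. The calls over all petal genes fell in the same way, to 114 higher and 137 lower of 22009 without day 1 repeat 1 and 220 and 241 of 21897 without day 1 repeat 2, against 966 and 1418 of 23433 with all libraries. The members' counts were 6 higher and 22 lower without day 7 repeat 1, and 6 higher and 27 lower without day 7 repeat 2. In corolla 12 and 13 were lower without day 1 repeat 1 and without day 1 repeat 2, against 723 and 1038 lower of all genes, and 2 or 3 members were higher whichever library was left out. The 7 petal falls that passed without each library in turn were GDSL At1g71250, GDSL APG (c101094.graph_c0), GDSL At5g45950, the pEARLI1-like protein, both omega-6 desaturases and delta(24)-sterol reductase. Every other petal call of a member was lost, or could no longer be tested, without 1 or both of the petal day 1 libraries. With no minimum level 0 members were higher in petal, with 8 at an unadjusted limma p below 0.05, and 11 lower, where 175 and 277 of all 67182 genes were called. In corolla 14 of the 20 calls passed without each library, 2 higher and 12 lower. Of the called members, 0 changed sign under any alternative setting. Upper-quartile scaling lifted the median of all genes to 0.20 in petal and 0.13 in corolla and turned the petal calls over all genes to 2925 higher and 1200 lower, against 966 and 1418 as deposited, and the corolla calls to 2129 and 1955, against 1462 and 3358. Under that scaling 8 members were higher and 20 lower in petal, and 2 higher and 16 lower in corolla.

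**Figure D3:**
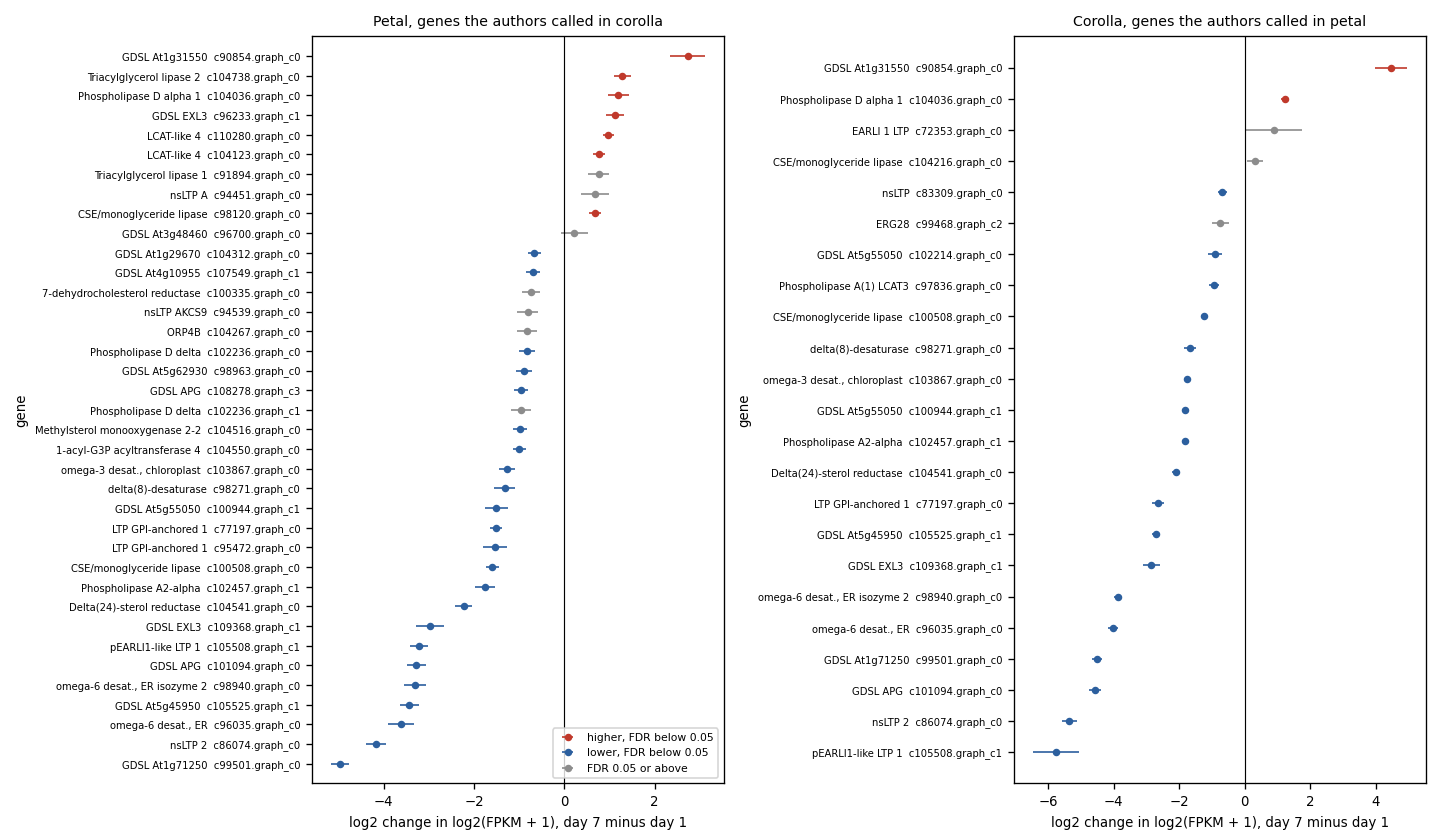
Day 7 minus day 1 in log2(FPKM + 1) (x axis, estimate and SE from limma) for the 37 members picked from corolla calls and tested in petal (left) and the 23 picked from petal calls and tested in corolla (right); colour gives the call at an FDR of 0.05. Most estimates lie left of 0 in both panels, down to -4.97 in petal for GDSL At1g71250 and -5.76 in corolla for the pEARLI1-like protein, which ran from -6.86 to -4.66 with 1 library left out.

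Lipid transfer proteins held the largest sum of any group in every library except corolla day 1 repeat 1. Of those picked in the other tissue, 4 of 6 were lower on day 7 in petal and 4 of 5 in corolla, and none was called higher in either by limma, where 5 of the 6 and 4 of the 5 had an unadjusted p below 0.05. The petal count includes lipid-transfer protein 2, which passed the minimum through day 1 alone. Over all described genes picked the same way, 38.6% were lower in petal and 56.5% in corolla. The GPI-anchored protein LTPG1 (c95472.graph_c0), whose Arabidopsis counterpart is needed to bring wax to the stem cuticle, was at 978 and 1060.4 FPKM in corolla on day 7 and 2782 and 2814 FPKM in corolla on day 1. In petal it was at 754 and 986 FPKM on day 7, against 2627 and 2393 FPKM on day 1, a log2 fold change of -1.54 ± 0.26 (SE; limma adjusted p = 0.0284). It was the largest part of the lipid transfer sum in corolla, 78.3% and 78.4% on day 7 and 62.1% and 63.1% on day 1.

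Non-specific lipid-transfer protein 2 (c86074.graph_c0) was low on day 7 in both tissues. It stood at 1.35 and 1.93 FPKM in corolla on day 7, against 126 and 88.8 FPKM on day 1. Petal stood at 0.35 and 0.53 FPKM on day 7, against 27.2 and 22.8 FPKM on day 1. The day 7 levels rest on 19 and 20 counts in corolla and 5 and 5 counts in petal. The log2 fold change was -5.35 ± 0.22 in corolla (limma adjusted p = 0.00135). In petal the estimate was -4.17 ± 0.23, given as a description, since the gene reached 1 FPKM there on day 1 alone. The days did not overlap in either tissue.

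A pair of members are proline-rich proteins with a lipid transfer domain, of the EARLI1 and AZI1 kind known in Arabidopsis from cold and defence responses. The pEARLI1-like protein 1 (c105508.graph_c1) was at 36.8 and 7.24 FPKM in corolla on day 7, against 962 and 950.3 FPKM on day 1. Petal levels were 267 and 311 FPKM on day 7, against 2842 and 2578 FPKM on day 1. The day 7 corolla repeats were far apart, by 2.20 on the log2 scale, yet both were below every other library. Its log2 fold change was -3.23 ± 0.21 in petal (limma adjusted p = 0.00712) and -5.76 ± 0.71 in corolla (adjusted p = 0.00848). The corolla call was lost without day 1 repeat 1 (adjusted p = 0.051), and the estimate ran from -6.86 to -4.66 with 1 library left out. EARLI 1 (c72353.graph_c0) was at 17.0 and 24.7 FPKM in corolla on day 7 and 3.67 and 27.8 FPKM in corolla on day 1, so its corolla groups overlapped. In petal it was at 99.2 and 135 FPKM on day 7, against 804 and 701 FPKM on day 1, which is the change that chose it. The corolla log2 fold change of 0.89 ± 0.86 did not pass (limma adjusted p = 0.522). It turned to -0.43 without corolla day 1 repeat 1 and passed at 2.20 without corolla day 1 repeat 2.

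The other lipid transfer members ranged more widely in level. A further LTPG1-like gene (c77197.graph_c0) was at 1.73 and 1.42 FPKM in corolla on day 7 and 16.3 and 13.9 FPKM in corolla on day 1. Petal libraries stood at 32.4 and 28.2 FPKM on day 7 and 88.4 and 87.7 FPKM on day 1. It was lower on day 7 in both tissues without overlap, by -1.51 ± 0.14 in petal (limma adjusted p = 0.00951) and -2.64 ± 0.19 in corolla (adjusted p = 0.00261). The AKCS9-like protein (c94539.graph_c0), named after a cowpea gene, was at 126 and 158 FPKM in corolla on day 7 and 459 and 400.2 FPKM in corolla on day 1, but at 23.8 and 33.9 FPKM in petal on day 7 and 58.4 and 43.7 FPKM in petal on day 1. Its petal change of -0.81 ± 0.23 did not pass (limma adjusted p = 0.0858). Another non-specific protein (c83309.graph_c0) was at 83.9 and 92.0 FPKM in corolla on day 7, against 125 and 161 FPKM on day 1, a log2 fold change of -0.68 ± 0.14 (limma adjusted p = 0.0326) that did not pass without either day 1 library.

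One lipid transfer member was chosen for a rise. Non-specific lipid-transfer protein A (c94451.graph_c0) was at 4.84 and 7.04 FPKM in corolla on day 7 and 0.10 and 0.75 FPKM in corolla on day 1, and the petal change, with 2.39 and 2.98 FPKM on day 7 against 1.74 and 0.92 FPKM on day 1, did not pass (log2 fold change 0.68 ± 0.30, limma adjusted p = 0.21). The remaining 2 were low and listed for 1 tissue each. The protein like At2g13820 was at 0.12 and 0.31 FPKM in corolla on day 7, against 3.05 FPKM in each day 1 library. The DIR1-like protein (c71357.graph_c0), whose Arabidopsis counterpart acts in systemic resistance, was at 0 and 0.53 FPKM in petal on day 7, against 3.53 and 2.38 FPKM on day 1.

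GDSL esterases and lipases were the largest group by number. In petal 2 of 12 were higher on day 7 and 9 lower, and in corolla 1 of 7 was higher and 6 lower. These counts include genes that met the minimum through the day on which they were high alone. In petal they are At1g31550 among the higher and EXL3 c109368.graph_c1 among the lower. In corolla At1g31550 is the 1 higher, and EXL3 c109368.graph_c1 is among the lower. Over all described genes picked the same way, 14.6% were higher and 38.6% lower in petal, and 19.2% and 56.5% in corolla. A single gene made up most of the group's level on day 1: GDSL At1g71250 (c99501.graph_c0) was at 113 and 126 FPKM in corolla on day 7, against 3143 and 2412 FPKM on day 1. In petal it was at 71.2 and 77.4 FPKM on day 7, against 2744 and 2029 FPKM on day 1. It was 24.4% and 27.2% of the GDSL sum in corolla on day 7 and 68.5% and 66.0% on day 1. Its log2 fold change was -4.97 ± 0.21 in petal (limma adjusted p = 0.00383) and -4.52 ± 0.15 in corolla (adjusted p = 0.00121).

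A pair of GDSL genes named APG, after a proline-rich protein of anthers in Arabidopsis and Brassica, fell to different depths. One (c101094.graph_c0) was at 10.3 and 12.2 FPKM in corolla on day 7, against 337 and 246 FPKM on day 1. The petal levels were 10.03 and 12.1 FPKM on day 7, against 139 and 96.4 FPKM on day 1. The tissues overlapped on day 7, and the change between days was -3.28 ± 0.22 in petal (limma adjusted p = 0.00712) and -4.56 ± 0.18 in corolla (adjusted p = 0.00134). The other (c108278.graph_c3) was at 86.7 and 93.3 FPKM in corolla on day 7 and 297 and 275 FPKM in corolla on day 1. The petal libraries stood at 52.0 and 63.5 FPKM on day 7, against 116 and 108 FPKM on day 1, a log2 fold change of -0.95 ± 0.15 (limma adjusted p = 0.0254).

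Among the other abundant GDSL members, At5g55050 (c100944.graph_c1) was at 97.7 and 94.9 FPKM in corolla on day 7, against 374 and 315 FPKM on day 1. Petal stood at 33.0 and 55.2 FPKM on day 7, against 132 and 115 FPKM on day 1. It was lower by -1.51 ± 0.26 in petal (limma adjusted p = 0.0294) and by -1.82 ± 0.11 in corolla (adjusted p = 0.00181). GDSL At5g45950 (c105525.graph_c1) was at 33.1 and 26.9 FPKM in corolla on day 7, against 211 and 192 FPKM on day 1. The petal levels were 11.3 and 13.7 FPKM on day 7, against 170.3 and 122 FPKM on day 1. The change on the log2 scale was -3.43 ± 0.21 in petal (limma adjusted p = 0.00712) and -2.71 ± 0.13 in corolla (adjusted p = 0.00149). In all these genes the day 7 libraries lay below the day 1 libraries of the same tissue.

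The GDSL genes named EXL3, after the extracellular lipases of Arabidopsis, did not move as one. EXL3 c96233.graph_c1 was at 13.5 and 14.4 FPKM in corolla on day 7, against 0.75 and 1.55 FPKM on day 1. Petal stood at 15.0 and 15.3 FPKM on day 7, against 5.49 and 7.46 FPKM on day 1. In petal it was higher by 1.12 ± 0.20 (limma adjusted p = 0.0337). EXL3 c109368.graph_c1 went the other way, with 0.31 and 0.59 FPKM in corolla on day 7, against 10.8 and 8.16 FPKM on day 1, and 0.13 and 0.32 FPKM in petal on day 7, against 10.7 and 6.80 FPKM on day 1. Its log2 fold change was -2.97 ± 0.31 in petal and -2.85 ± 0.25 in corolla, from 3 and 5 counts in petal and 7 and 10 counts in corolla on day 7. These sizes are a description, since the gene reached 1 FPKM on day 1 alone in each tissue. The third EXL3 gene (c97980.graph_c0) stood at 0.65 and 0.61 FPKM in corolla on day 7 and 3.29 and 5.12 FPKM in corolla on day 1, and was too low in petal to be tested.

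The largest rise of any member in the authors' deposited tables was that of GDSL At1g31550 (c90854.graph_c0), with a log2 fold change of 5.42 in corolla and 7.29 in petal. It was at 40.1 and 32.4 FPKM in corolla on day 7, against 0.04 and 1.74 FPKM on day 1. The petal levels were 8.56 and 3.95 FPKM on day 7, against 0.08 and 0 FPKM on day 1. In counts this was 941 and 562 in corolla on day 7, against 1 and 34 on day 1, and 204 and 63 in petal on day 7, against 2 and 0 on day 1. All 4 day 7 libraries were above all 4 day 1 libraries. In limma the log2 fold change was 4.46 ± 0.48 in corolla. There the gene met the minimum through day 7 alone, with only 1 day 1 library above 1 FPKM. In petal, where the gene reached 1 FPKM on day 7 alone, the estimate was 2.73 ± 0.39. Both estimates are a description. Both sizes depend on the 1 FPKM added before the log.

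The desaturases moved together. All 4 were called in both tissues by the authors. Picked from the calls of the other tissue, all 4 were also lower on day 7 in each tissue's own limma fit. The median log2 fold changes were -2.32 in petal and -2.82 in corolla. Of all described genes picked the same way, 38.6% were lower in petal and 56.5% in corolla. The omega-6 desaturases of the endoplasmic reticulum put the second double bond into oleate, which gives linoleate. One, isozyme 2 (c98940.graph_c0), was at 26.1 and 24.8 FPKM in corolla on day 7, against 426 and 350.1 FPKM on day 1. Petal stood at 22.2 and 26.8 FPKM on day 7, against 312 and 200.1 FPKM on day 1. Its log2 fold change was -3.30 ± 0.24 in petal (limma adjusted p = 0.00712) and -3.87 ± 0.12 in corolla (adjusted p = 0.00121). The other (c96035.graph_c0) followed at 21.8 and 17.2 FPKM in corolla on day 7, against 362 and 296 FPKM on day 1. The petal levels were 15.9 and 20.1 FPKM on day 7, against 308 and 173 FPKM on day 1. On the log2 scale the change was -3.62 ± 0.30 in petal (limma adjusted p = 0.00818) and -4.01 ± 0.16 in corolla (adjusted p = 0.00134). Reads of such close copies may be split between them by the counting.

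The plastid omega-3 desaturase (c103867.graph_c0), which makes linolenate, the starting point of jasmonate, fell less. It was at 50.6 and 51.5 FPKM in corolla on day 7, against 183 and 172 FPKM on day 1, with petal at 47.0 and 60.8 FPKM on day 7, against 141 and 121 FPKM on day 1. It was above both omega-6 genes on day 7 and below both on day 1, in each tissue. The log2 fold change was -1.27 ± 0.18 in petal (limma adjusted p = 0.0188) and -1.78 ± 0.08 in corolla (adjusted p = 0.00149). The delta(8) desaturase (c98271.graph_c0), which acts on the long-chain base of sphingolipids, was at 2.04 and 2.43 FPKM in corolla on day 7, against 9.21 and 9.44 FPKM on day 1. In petal it was at 3.01 and 4.12 FPKM on day 7, against 11.3 and 9.47 FPKM on day 1, lower by -1.33 ± 0.23 (limma adjusted p = 0.0309), and in corolla by -1.68 ± 0.18 (adjusted p = 0.00649), a call lost without either corolla day 1 library. The acyltransferase 1-acyl-sn-glycerol-3-phosphate acyltransferase 4 (c104550.graph_c0), of a family that makes phosphatidic acid, was at 13.8 and 16.9 FPKM in corolla on day 7 and 33.9 and 32.1 FPKM in corolla on day 1. In petal libraries it was at 14.4 and 16.0 FPKM on day 7, against 32.9 and 30.0 FPKM on day 1, a log2 fold change of -1.001 ± 0.15 (limma adjusted p = 0.021).

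In petal 1 of 4 phospholipases was higher on day 7 and 2 lower, and in corolla 1 of 3 was higher and 2 lower. The shares of all described genes picked the same way were 14.6% higher and 38.6% lower in petal, and 19.2% and 56.5% in corolla. Phospholipase D cuts the head group from membrane phospholipids and leaves phosphatidic acid. Phospholipase D alpha 1 (c104036.graph_c0), which acts in abscisic acid signalling and in leaf ageing in Arabidopsis, was at 34.1 and 39.4 FPKM in corolla on day 7, against 15.3 and 15.1 FPKM on day 1, with petal at 61.1 and 90.0 FPKM on day 7, against 28.3 and 35.95 FPKM on day 1. It was higher by 1.19 ± 0.23 in petal (limma adjusted p = 0.0385) and by 1.21 ± 0.12 in corolla (adjusted p = 0.00475). Phospholipase D delta (c102236.graph_c0) was at 19.8 and 19.6 FPKM in corolla on day 7 and 79.0 and 62.6 FPKM in corolla on day 1, and in petal at 25.6 and 32.8 FPKM on day 7, against 55.5 and 49.0 FPKM on day 1, lower by -0.83 ± 0.17 (limma adjusted p = 0.045). This petal call was lost in 6 of 11 alternatives, with adjusted p up to 0.305. A second delta sequence of the same assembly component (c102236.graph_c1), with which it may share reads, had a petal log2 fold change of -0.97 ± 0.23 that did not pass (limma adjusted p = 0.0561).

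Phospholipase A2-alpha (c102457.graph_c1), a small secreted enzyme that frees a fatty acid from phospholipids, was the most abundant of the group. It was at 116 and 124 FPKM in corolla on day 7, against 456 and 401 FPKM on day 1, with petal at 102 and 147 FPKM on day 7, against 451 and 383 FPKM on day 1. The tissues overlapped on each day, and the log2 fold change was -1.76 ± 0.22 in petal (limma adjusted p = 0.0152) and -1.83 ± 0.10 in corolla (adjusted p = 0.00157). Phospholipase A(1) LCAT3 (c97836.graph_c0) was at 5.85 and 7.08 FPKM in corolla on day 7, against 13.8 and 12.7 FPKM on day 1, a log2 fold change of -0.94 ± 0.16 (limma adjusted p = 0.0197) that did not pass without either day 1 library.

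Of the other lipases, 2 of 4 were higher on day 7 and 1 lower in petal, and in corolla 0 of 2 were higher and 1 lower by limma. In corolla 1 of the 2 had an unadjusted limma p below 0.05. All described genes picked the same way gave 14.6% higher and 38.6% lower in petal, and 19.2% and 56.5% in corolla. Triacylglycerol lipase 2 (c104738.graph_c0), of a family that frees fatty acids from storage fat, was at 408 and 390.1 FPKM in corolla on day 7 and 149 and 189.8 FPKM in corolla on day 1. In petal it was at 510.4 and 577 FPKM on day 7, against 195 and 253 FPKM on day 1, higher by 1.28 ± 0.19 (limma adjusted p = 0.022). It was 80.5% to 83.5% of the group's sum in the day 7 libraries and 50.1% to 63.0% in the day 1 libraries. The rest of that sum was lower on day 7 than on day 1 in both tissues. Triacylglycerol lipase 1 (c91894.graph_c0) was at 8.26 and 5.85 FPKM in corolla on day 7, 1.33 and 1.91 FPKM in corolla on day 1, 12.2 and 11.7 FPKM in petal on day 7, and 5.44 and 8.08 FPKM in petal on day 1. Its petal change of 0.76 ± 0.23 did not pass (limma adjusted p = 0.0971), although the days did not overlap.

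The genes called caffeoylshikimate esterase or monoglyceride lipase diverged. One (c100508.graph_c0) was at 38.8 and 35.0 FPKM in corolla on day 7, against 90.6 and 88.3 FPKM on day 1, with petal at 43.7 and 51.8 FPKM on day 7, against 150.1 and 142 FPKM on day 1. It was lower by -1.60 ± 0.14 in petal (limma adjusted p = 0.00954) and by -1.26 ± 0.09 in corolla (adjusted p = 0.00262). The next (c98120.graph_c0) was at 44.2 and 34.7 FPKM in corolla on day 7 and 17.7 and 19.8 FPKM in corolla on day 1, and in petal at 62.5 and 56.7 FPKM on day 7, against 37.7 and 36.5 FPKM on day 1, higher by 0.67 ± 0.13 (limma adjusted p = 0.0392). The last (c104216.graph_c0), chosen in petal with 5.05 and 4.44 FPKM on day 7 against 0.86 and 1.06 FPKM on day 1, had a corolla change of 0.32 ± 0.24 that did not pass (limma adjusted p = 0.416).

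Sterol genes held genes of sterol synthesis, a sterol-binding protein, and the lecithin-cholesterol acyltransferase-like pair, which came in through the word cholesterol. In petal 2 of 6 were higher on day 7, both of that pair, and 2 lower, and in corolla 1 of 2 was lower. For all described genes picked the same way, 14.6% were higher and 38.6% lower in petal, and 19.2% and 56.5% in corolla. Delta(24)-sterol reductase (c104541.graph_c0), a late step toward campesterol, sitosterol and brassinosteroids, was at 9.41 and 10.3 FPKM in corolla on day 7, against 48.7 and 42.6 FPKM on day 1, with petal at 13.5 and 17.0 FPKM on day 7, against 83.8 and 67.3 FPKM on day 1. It was lower by -2.23 ± 0.19 in petal (limma adjusted p = 0.00828) and -2.10 ± 0.12 in corolla (adjusted p = 0.00181). Methylsterol monooxygenase 2-2 (c104516.graph_c0), which takes methyl groups off sterol precursors, was at 54.3 and 49.7 FPKM in corolla on day 7 and 124 and 106 FPKM in corolla on day 1, and in petal at 45.8 and 58.5 FPKM on day 7, against 104 and 102 FPKM on day 1, lower by -0.98 ± 0.16 (limma adjusted p = 0.0265). The change of 7-dehydrocholesterol reductase (c100335.graph_c0), a further late enzyme of that route, did not pass in petal (log2 fold change -0.74 ± 0.20, limma adjusted p = 0.0755). Nor did that of ergosterol biosynthetic protein 28 (c99468.graph_c2), a scaffold of the demethylation complex in yeast, in corolla (-0.75 ± 0.26, limma adjusted p = 0.11).

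Against these, the lecithin-cholesterol acyltransferase-like pair, named after a gene whose Arabidopsis product acts as a phospholipase A, was higher on day 7. One (c110280.graph_c0) was at 56.6 and 41.9 FPKM in corolla on day 7 and 15.5 and 16.6 FPKM in corolla on day 1, and in petal at 75.9 and 70.6 FPKM on day 7, against 35.9 and 37.6 FPKM on day 1, a log2 fold change of 0.98 ± 0.13 (limma adjusted p = 0.0165). The other (c104123.graph_c0) had nearly the same levels, with a petal change of 0.77 ± 0.13 (limma adjusted p = 0.027). The pair may share reads and may be parts of 1 gene. Oleosin 5 (c68194.graph_c0), a coat protein of oil bodies, was barely detected, at 0.09 and 0 FPKM in corolla on day 7, 2.49 and 1.76 FPKM in corolla on day 1, 0 FPKM in both petal libraries of day 7, and 0.43 and 0.11 FPKM in petal on day 1.

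Corolla against petal on the same day was not used to choose the members, although it draws on the same libraries. The 48 members listed for both tissues were tested in 1 limma fit of all 8 libraries. On day 7, 9 were higher in corolla and 7 lower, and on day 1, 10 were higher and 12 lower. Over all 26460 genes of the fit, 4.06% were called higher and 6.24% lower on day 7, and 6.11% higher and 7.8% lower on day 1. The 1896 described genes differed more often, with 16.7% higher and 17.4% lower on day 7 and 27.3% higher and 22.8% lower on day 1, and the members' shares of 18.8% and 14.6% on day 7 and 20.8% and 25% on day 1 stand beside those. The members' median log2 difference was -0.01 on day 7 and 0.08 on day 1, against -0.08 over all genes on each day. One member on day 7 and 5 on day 1 were below 1 FPKM in both libraries of 1 tissue but not in both libraries of the other. Without them 8 were higher and 7 lower of 47 on day 7, and 8 higher and 12 lower of 43 on day 1. The 8 higher on day 1 still include EXL3 c97980.graph_c0, which met the minimum only with corolla day 1, where it was high. The 12 lower still include GDSL At5g45670 (c86625.graph_c0), which met it only with petal day 1.

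These tissue counts depended on single libraries and on the fit. Without corolla day 7 repeat 2 the limma calls on day 7 were 4 higher and 3 lower, and in the 4 libraries of day 7 alone 5 and 4. Over all genes these settings gave 538 higher and 643 lower, and 509 and 667, against 1074 and 1652 as deposited. Without corolla day 1 repeat 1, 7 members were lower on day 1, where 903 of all genes were lower, against 2063. Through every library left out, 7 of the 16 day 7 calls held, 4 higher and 3 lower, and 13 of the 22 day 1 calls, 6 higher and 7 lower. Scaling turned the split over all genes: on day 7 it was 1074 higher and 1652 lower as deposited, 1803 and 1520 after median-of-ratios scaling, and 1782 and 1375 after upper-quartile scaling, and on day 1 it was 1617 and 2063, 2261 and 2005, and 2069 and 1918. The members became 10 higher and 6 lower, and 10 higher and 5 lower, on day 7, and 12 higher and 12 lower on day 1 under either scaling. Of the 31 photosynthesis genes tested, 13 were higher in corolla and 2 lower on day 7, and 26 higher and 1 lower on day 1.

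**Figure D4:**
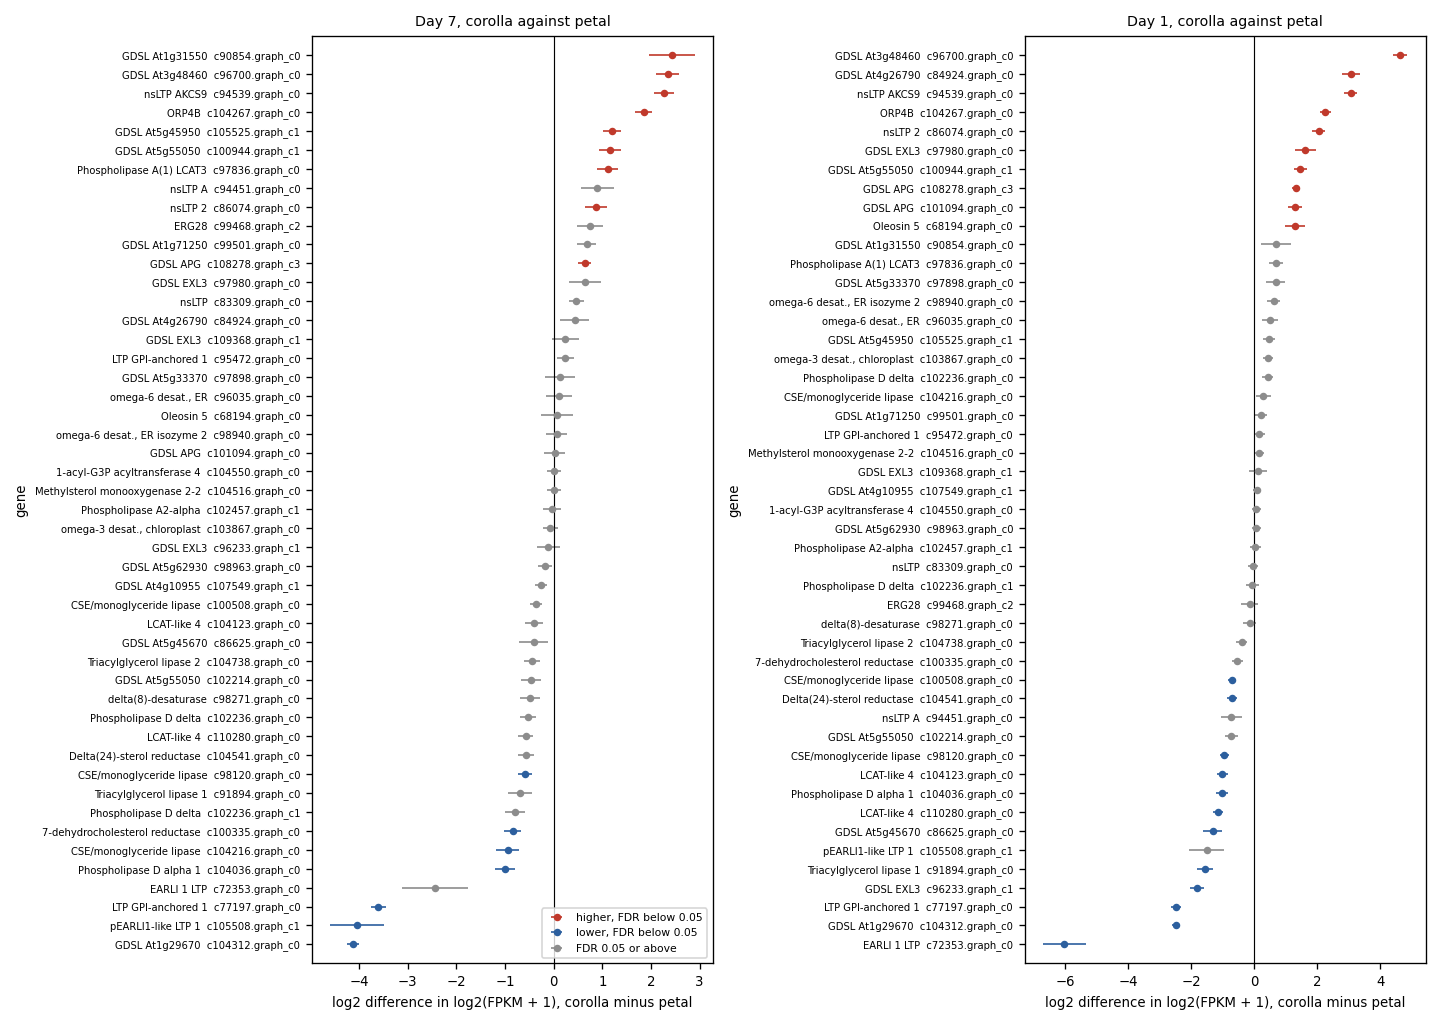
Corolla minus petal in log2(FPKM + 1) (x axis, estimate and SE from limma) for the 48 members listed in both tissues, on day 7 (left) and day 1 (right), ordered by size; colour gives the call at an FDR of 0.05. Estimates spread to both sides of 0, from -4.13 to 2.43 on day 7 and from -6.02 to 4.63 on day 1.

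Differences between the tissues were largest among GDSL and lipid transfer genes. GDSL At1g29670 (c104312.graph_c0) was at 4.12 and 3.85 FPKM in corolla and 90.4 and 82.8 FPKM in petal on day 7, and at 23.2 and 24.4 FPKM in corolla and 129.97 and 147 FPKM in petal on day 1. It was lower in corolla by -4.13 ± 0.12 on day 7 (limma adjusted p = 1.54e-06) and by -2.49 ± 0.12 on day 1 (adjusted p = 1.82e-05). GDSL At3g48460 (c96700.graph_c0) was the mirror of it, at 16.9 and 11.97 FPKM in corolla and 2.42 and 1.64 FPKM in petal on day 7, and at 66.1 and 60.2 FPKM in corolla and 1.95 and 1.27 FPKM in petal on day 1. It was higher in corolla by 2.34 ± 0.23 on day 7 (limma adjusted p = 0.000761) and by 4.63 ± 0.23 on day 1 (adjusted p = 1.87e-05), and its petal levels overlapped between days (log2 fold change 0.22 ± 0.30, adjusted p = 0.697).

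Further GDSL genes were higher in corolla on both days or on 1 of them. At5g55050 (c100944.graph_c1) was higher by 1.15 ± 0.22 on day 7 (limma adjusted p = 0.0147) and by 1.47 ± 0.22 on day 1 (adjusted p = 0.00335), and the APG gene c108278.graph_c3 by 0.64 ± 0.13 (adjusted p = 0.0194) and by 1.34 ± 0.13 (adjusted p = 0.000384). Both day 7 calls were lost without corolla day 7 repeat 2 and in the libraries of day 7 alone, and that of At5g55050 also without corolla day 7 repeat 1. At5g45950 (c105525.graph_c1) was higher in corolla on day 7, by 1.20 ± 0.19 (limma adjusted p = 0.00607), as was At1g31550 (c90854.graph_c0), by 2.43 ± 0.47 (adjusted p = 0.015), a call lost with a pseudocount of 0.1 FPKM and without either corolla library or petal repeat 2 of day 7 (adjusted p up to 0.168). The APG gene c101094.graph_c0 was higher on day 1, by 1.31 ± 0.22 (limma adjusted p = 0.00548), and not past the threshold without corolla day 1 repeat 1 (adjusted p = 0.0529). GDSL At4g26790 (c84924.graph_c0) was at 0.72 and 0.36 FPKM in corolla and 0 and 0.29 FPKM in petal on day 7, and at 8.98 and 8.27 FPKM in corolla and 0.12 and 0.16 FPKM in petal on day 1, where the difference was 3.08 ± 0.29, given as a description since only corolla on day 1 reached 1 FPKM. EXL3 c96233.graph_c1 was lower in corolla on day 1, by -1.81 ± 0.23 (limma adjusted p = 0.00143), and did not pass on day 7 (-0.11 ± 0.23, adjusted p = 0.824).

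Among the lipid transfer proteins, the LTPG1-like gene c77197.graph_c0 was lower in corolla by -3.60 ± 0.15 on day 7 (limma adjusted p = 8.01e-06) and by -2.47 ± 0.15 on day 1 (adjusted p = 4.14e-05). The pEARLI1-like protein was lower by -4.04 ± 0.56 on day 7 (limma adjusted p = 0.00356), and on day 1, at 962 and 950.3 FPKM in corolla against 2842 and 2578 FPKM in petal, its difference of -1.50 ± 0.56 did not pass (adjusted p = 0.124). EARLI 1 had the largest difference of any member on day 1, -6.02 ± 0.68 (limma adjusted p = 0.000794), with its wide corolla repeats, and on day 7 its -2.44 ± 0.68 did not pass (adjusted p = 0.0586). The AKCS9-like protein was higher in corolla by 2.27 ± 0.21 on day 7 (limma adjusted p = 0.000555) and by 3.06 ± 0.21 on day 1 (adjusted p = 7.08e-05). Lipid-transfer protein 2 was higher in corolla on day 1, by 2.04 ± 0.22 (limma adjusted p = 0.000628), and on day 7, when it reached 1 FPKM in corolla alone, the difference of 0.87 ± 0.22 is a description. The abundant LTPG1 gene c95472.graph_c0 did not pass on either day (0.24 ± 0.18 and 0.16 ± 0.18, limma adjusted p = 0.458 and 0.642).

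In the sterol group, oxysterol-binding protein-related protein 4B (c104267.graph_c0), of a family that carries sterols and phospholipids between membranes, was at 59.2 and 59.0 FPKM in corolla and 12.7 and 19.2 FPKM in petal on day 7, and at 140.5 and 139 FPKM in corolla and 27.3 and 29.6 FPKM in petal on day 1. It was higher in corolla by 1.85 ± 0.18 on day 7 (limma adjusted p = 0.000628) and by 2.26 ± 0.18 on day 1 (adjusted p = 0.000129). 7-dehydrocholesterol reductase was lower in corolla on day 7, by -0.84 ± 0.18 (limma adjusted p = 0.0219), and delta(24)-sterol reductase on day 1, by -0.71 ± 0.17 (adjusted p = 0.0251). The day 7 call was lost without either corolla day 7 library and in the libraries of day 7 alone, and the day 1 call without any 1 of the 4 day 1 libraries. The lecithin-cholesterol acyltransferase-like pair was lower in corolla on day 1, by -1.15 ± 0.15 (limma adjusted p = 0.00198) and by -1.01 ± 0.18 (adjusted p = 0.00729), the second of which was lost without corolla day 1 repeat 1 or petal day 1 repeat 2.

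Phospholipase D alpha 1 was lower in corolla on both days, by -0.997 ± 0.20 on day 7 (limma adjusted p = 0.0178) and by -1.02 ± 0.20 on day 1 (adjusted p = 0.0115). The day 7 call was lost without either corolla day 7 library and in the libraries of day 7 alone, and the day 1 call without corolla day 1 repeat 1, corolla day 1 repeat 2 or petal day 1 repeat 2. Phospholipase A(1) LCAT3 was higher in corolla on day 7, at 5.85 and 7.08 FPKM against 1.88 and 3.10 FPKM in petal, by 1.11 ± 0.22 (limma adjusted p = 0.0158), a call lost without corolla day 7 repeat 2 or petal day 7 repeat 1 and in the libraries of day 7 alone. Of the 5 other lipases, 2 were lower in corolla on day 7 and 3 on day 1, with none higher by limma. Among them triacylglycerol lipase 1 was lower on day 1, by -1.55 ± 0.25 (limma adjusted p = 0.00435), while triacylglycerol lipase 2 did not pass on either day (-0.44 ± 0.17 and -0.40 ± 0.17, adjusted p = 0.149 and 0.178). The desaturases passed on neither day in limma, with 0 of 4 called on each day and 1 and 2 of them at an unadjusted p below 0.05. Their differences ran from -0.49 to 0.11 on day 7 and from -0.14 to 0.63 on day 1, which does not show that the tissues were alike.

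**Figure D5:**
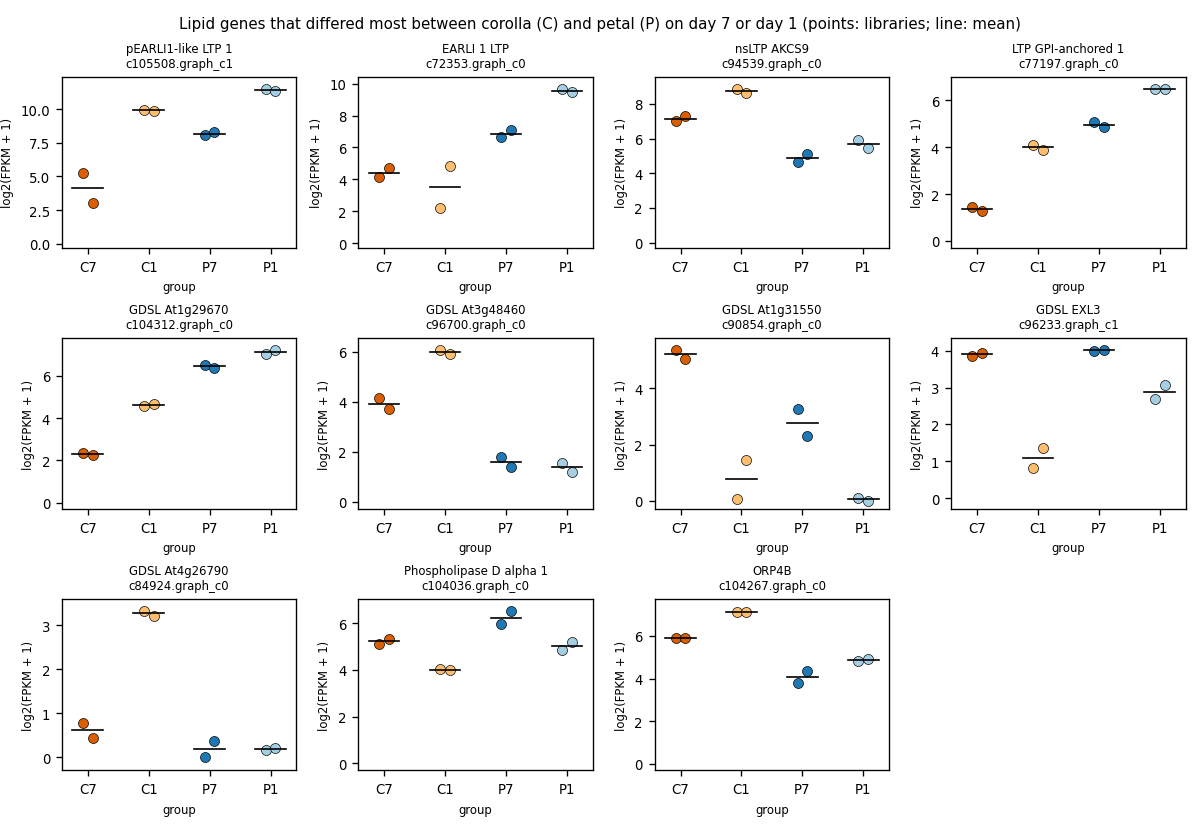
Levels, as log2(FPKM + 1) on the y axis, of 11 members in each library (points) with group means (lines). Each panel has its own scale. The members have the largest called differences without overlap between corolla (C) and petal (P), taken separately for higher and lower and for each day. Some larger differences in the other direction are therefore not shown. GDSL At1g29670 and At3g48460 stand on opposite sides, at 4.12 and 3.85 against 90.4 and 82.8 FPKM and at 16.9 and 11.97 against 2.42 and 1.64 FPKM in corolla against petal on day 7.

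Other lipid genes of the descriptions, 29 in all, gave a setting for the members. These hold acyltransferases, fatty acid synthesis and oxidation enzymes, lipoxygenases, phosphatidylinositol transfer proteins, choline and ethanolamine enzymes and annexins, found by words among the genes the authors called, so that measured values chose them as well. A few rest on a word alone: an acyl-coenzyme A oxidase of Swiss-Prot (c111031.graph_c0) is a gibberellin dioxygenase in Nr with an oxygenase domain in Pfam, and 1 acyltransferase acts on anthocyanins. In petal, of 24 picked from corolla calls and tested by limma, 5 were higher on day 7 and 11 lower, with a median log2 fold change of -1.02, and in corolla, of 15 picked from petal calls, 3 were higher and 7 lower, with a median of -1.27. Beside these, all described genes picked the same way had 14.6% higher and 38.6% lower in petal, and 19.2% and 56.5% in corolla. Phosphoethanolamine N-methyltransferase 1 (c101855.graph_c1), which makes the choline head group of membrane lipids, was at 3.59 and 2.64 FPKM in corolla on day 7, against 108 and 71.9 FPKM on day 1, and lower in petal by -4.75 ± 0.22 (limma adjusted p = 0.00447). Glycerol-3-phosphate 2-O-acyltransferase 6 (c102074.graph_c2), an enzyme of cutin synthesis in Arabidopsis, was at 17.4 and 17.3 FPKM in corolla on day 7, against 401 and 348 FPKM on day 1, with petal at 73.6 and 76.5 FPKM on day 7, against 372 and 294 FPKM on day 1. Among the genes that rose in petal were the fatty acid oxidation enzyme 3-ketoacyl-CoA thiolase 2 (c100748.graph_c1), by 1.29 ± 0.20 (limma adjusted p = 0.024), and diacylglycerol O-acyltransferase 1 (c92200.graph_c0), which makes storage fat, by 1.35 ± 0.27 (adjusted p = 0.0396). Between the tissues, 5 of the 29 were higher in corolla and 7 lower on day 7, and 7 higher and 5 lower on day 1. The shares over all described genes were 16.7% higher and 17.4% lower on day 7, and 27.3% and 22.8% on day 1.

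Whether the day change of a member differed between corolla and petal was not tested, since that difference contains the contrast that chose the members. Of the 48 members listed in both tissues, 0 had days that did not overlap and moved opposite ways, against 3.84% of all 50576 genes listed for both and 2.55% of the 1919 described ones. Between the tissues, 3 of the 48 differed in opposite directions on the days without overlap, against 4.05% of all genes and 9.48% of the described ones.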

How the data were processed

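Poly-A RNA of the 8 libraries was sequenced on an Illumina HiSeq system and assembled de novo, per the labels. The tools were Bowtie and RSEM, versions not stated, per the submitters' processing notes. No genome was used here. For each tissue the authors deposited FPKM of all genes, an FDR (an adjusted p-value) and a log2 fold change, per the file headers. Read counts were deposited for called genes alone, per the file headers, and summed to 1664739 to 3471042 in corolla and 811027 to 1710862 in petal libraries, so total depth is unknown and no count test was run. For the tool behind the authors' calls, the sources used here give no name.

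The members and lists were chosen with earlier results of these data known. limma 3.58.1 (R 4.3.3) with a trend was run on log2(FPKM + 1), two-sided, over all genes that reached 1 FPKM in 2 or more libraries of the fit, and called at an FDR of 0.05: day 7 against day 1 in the 4 libraries of a tissue, for members the other tissue's calls picked, and corolla against petal in 1 fit of all 8 libraries, over the genes in both tables (50576). Both tables use nearly the same gene lengths: count per FPKM, corolla over petal, was within 5% of its median for 79.8% of 346 genes. Named genes were the most abundant of each group, the largest called changes without overlap in each of 4 comparisons, and the authors' largest changes, and further members were named to account for their group. The fits were first tested on simulated data. Alternatives were another pseudocount, other minimum levels, other scalings, other sets of libraries, the repeat number as a block, and leaving out each library. Python 3.11.15 with pandas 2.3.3, numpy 2.4.6 and matplotlib 3.10.9 made the tables and plots.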

Additional observations from a re-analysis of the deposited data

Results flagged for a closer look

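In 3 members corolla and petal differed in opposite directions on the days, without overlap of the libraries, which is 3 of the 48 listed for both, against 4.05% of all genes and 9.48% of the described genes listed for both. These differences between days were not tested, since they contain the contrast that chose the members. Non-specific lipid-transfer protein A (c94451.graph_c0) was higher in corolla by 0.90 on day 7, at 4.84 and 7.04 FPKM against 2.39 and 2.98 FPKM in petal, and lower by -0.73 on day 1, at 0.10 and 0.75 FPKM against 1.74 and 0.92 FPKM in petal. The caffeoylshikimate esterase or monoglyceride lipase c104216.graph_c0 was lower in corolla by -0.95 on day 7, at 2.24 and 1.73 FPKM against 5.05 and 4.44 FPKM in petal, and higher by 0.29 on day 1, at 1.33 and 1.45 FPKM against 0.86 and 1.06 FPKM in petal. Phospholipase D delta (c102236.graph_c0) was lower in corolla by -0.53 on day 7, at 19.8 and 19.6 FPKM against 25.6 and 32.8 FPKM in petal, and higher by 0.43 on day 1, at 79.0 and 62.6 FPKM against 55.5 and 49.0 FPKM in petal. Of these 6 differences, 1 passed in limma, that of c104216.graph_c0 on day 7 (adjusted p = 0.0442), a call lost in 13 of 14 alternatives. All sizes are on the log2(FPKM + 1) scale.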

How the results depend on the processing

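Of 88 calls of members, 45 held in every alternative planned that could test them and 43 were lost in at least 1, 24 with no minimum level, 9 with a pseudocount of 0.1 FPKM, 8 in the libraries of the day alone, 7 with upper-quartile scaling, 5 with the repeat block, 3 with median-of-ratios scaling and 10 by leaving out a library alone, some by more than 1 setting, and 0 reversed. The uncalled corolla change of EARLI 1 (c72353.graph_c0) turned to -0.43 without corolla day 1 repeat 1 and passed at 2.20 without corolla day 1 repeat 2. With no minimum level the petal counts were 0 higher (8 at an unadjusted limma p below 0.05) and 11 lower. In the libraries of day 7 alone, corolla against petal gave 5 higher and 4 lower. Leaving out 1 library at a time gave 0 to 6 higher and 0 to 27 lower in petal, 0 to 3 higher and 0 to 18 lower in corolla, 4 to 8 higher and 3 to 6 lower between tissues on day 7, and 7 to 12 higher and 7 to 14 lower on day 1. For the petal rises, zeros arose also in the planned fits with the minimum applied again, without either petal day 1 library. In both directions they arose in a variant added after seeing the data, when the genes of the full fit were kept. There limma called no member without petal day 7 repeat 1, petal day 1 repeat 1 or 2, or corolla day 1 repeat 1 or 2. These fits also called 0 higher and 0 lower of all 23433 petal or 22407 corolla genes. In a second added variant, 1 fit of all 8 libraries, leaving out a library gave 1 to 6 higher and 17 to 27 lower in petal and 2 to 3 higher and 15 to 17 lower in corolla. The cause was not tested. The repeat number did not pair libraries within a tissue (correlation of the repeats' deviations -0.00476 and 0.000841 over 26460 genes between days, 0.293 and 0.139 between tissues on day 7 and day 1). With it as a block, 6 members were higher and 20 lower in petal, 2 and 18 in corolla, 10 and 10 between tissues on day 7 and 11 and 13 on day 1. Groups of 2 libraries limit the precision of every test, and members under 1 FPKM rest on few counts.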
